A study of Mus musculus with 3 samples.

Results

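Gbp2, Gbp3, Gbp4, Gbp5, Gbp7, Irgm1, Igtp and Iigp1 are 8 GTPase genes of mouse cells that interferon-gamma induces, and they were taken as a fixed list from the 19039 genes found in any of 3 RNA matrices. All 8 were present in each matrix. The data came from CITE-seq, in which RNA and antibody-tagged surface proteins are read from the same droplet, and the samples were pooled for 1 run after each had been stained with its own hashing antibody. The study asked how microglia, the resident macrophages of the brain, shape the immune cells around brain metastases.

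All mice were female, 2 to 3 months old, on a C57Bl/6 background, and carried Cx3cr1CreERT, a Cre recombinase switched on by tamoxifen and expressed from Cx3cr1, which encodes a chemokine receptor found on microglia and part of the monocytes. Every mouse received tamoxifen and, a month later, diphtheria toxin. Mice of the depleted arm carried ROSA-iDTR as well, a toxin receptor that Cre switches on, while mice of the control arm lacked it. From naive brain there were 785 cells with the control label and 1868 with the depleted label. From blood of mice bearing metastases there were 1371 and 1553. Brain with metastases, grown for about 2 weeks from E0771 mouse mammary tumour cells injected into the carotid artery, gave 5933 cells, used here as 1 pooled sample without a map to the arms. Brain cells had been enriched for immune cells on Percoll, and the submitters state that microglia remain in depleted samples. Each arm and tissue was 1 hashed sample, so there is no replicate, no test was made, and every interval covers counting error only. Levels carry no interval, because corrected UMIs are not raw counts.

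Interferon-gamma is made mainly by T cells and NK cells. It binds the receptor pair Ifngr1 and Ifngr2, which signal through the kinases Jak1 and Jak2, and its target genes are switched on through GAS elements and, by way of Irf1, through interferon-stimulated response elements. Guanylate-binding proteins (Gbp2, Gbp3, Gbp4, Gbp5, Gbp7) and immunity-related GTPases (Irgm1, Igtp, Iigp1) gather on vacuoles and membranes that hold intracellular pathogens. Irgm1 and Igtp are regulatory members of their family and Iigp1 is an effector, and type I interferon induces many of the same genes.

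Promoters are shown because the 8 genes were high in the same cells. RefSeq promoters on build GRCm38.p6 were used for 6 of the 8 genes, as 7 entries, while those of Gbp4 and Iigp1 were not used here. The 250 bases before the start were searched on both strands for GAAANNGAAA, the core of the response element called ISRE, and for TTCNNNGAA, the GAS core. All 6 genes searched held an ISRE match, in 6 of 7 entries, whereas 2.98% of all 32851 promoters of 27025 genes did. A GAS match was found in 3 of the 6, Gbp5, Gbp7 and Igtp, and in 7.02% of all promoters. In the sequences the capitals mark the matches. A match describes letters and is not evidence of a bound site.
Gbp2 (chr3:142620413-142620662, plus strand) and Gbp5 (chr3:142496684-142496933, plus strand) stand for the guanylate-binding proteins, with Irgm1 (chr11:48871421-48871670, minus strand) and Igtp (chr11:58199306-58199555, plus strand) for the immunity-related GTPases.
Gbp2: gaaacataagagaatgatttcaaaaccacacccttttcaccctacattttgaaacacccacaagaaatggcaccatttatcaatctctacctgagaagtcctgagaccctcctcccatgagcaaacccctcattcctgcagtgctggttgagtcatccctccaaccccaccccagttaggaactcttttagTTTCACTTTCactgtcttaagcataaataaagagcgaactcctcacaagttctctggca
Gbp5: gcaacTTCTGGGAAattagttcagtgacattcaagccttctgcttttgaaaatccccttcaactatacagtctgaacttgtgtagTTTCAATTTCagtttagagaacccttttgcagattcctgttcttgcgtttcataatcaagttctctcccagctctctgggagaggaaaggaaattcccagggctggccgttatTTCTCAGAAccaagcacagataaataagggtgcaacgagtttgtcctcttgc
Irgm1: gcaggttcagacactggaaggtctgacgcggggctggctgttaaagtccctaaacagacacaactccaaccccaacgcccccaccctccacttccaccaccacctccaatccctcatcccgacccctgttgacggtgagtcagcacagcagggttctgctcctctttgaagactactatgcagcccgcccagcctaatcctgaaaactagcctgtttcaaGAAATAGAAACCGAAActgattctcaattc
Igtp: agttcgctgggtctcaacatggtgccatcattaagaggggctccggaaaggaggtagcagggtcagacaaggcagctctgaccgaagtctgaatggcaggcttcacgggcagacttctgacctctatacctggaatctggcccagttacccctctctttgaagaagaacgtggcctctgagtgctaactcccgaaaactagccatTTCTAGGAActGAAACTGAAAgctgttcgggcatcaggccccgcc

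In Gbp2 the ISRE core lay on the opposite strand, 59 to 50 bases before the start, and in Gbp5 165 to 156 bases before it, with GAS cores at 245 to 237 and 52 to 44. Irgm1 had a pair of ISRE cores that overlap by a GAAA, from 30 to 15 bases before the start. Igtp had a GAS core at 45 to 37 next to an ISRE core at 34 to 25. Gbp3 also held overlapping ISRE cores, 45 to 30 bases before the start of its first entry, and Gbp7 held one at 53 to 44 with GAS cores at 106 to 98 and 87 to 79. Gbp5, Gbp7, Gbp3 and Gbp2 lie in that order within chr3:142496934-142638008, Gbp4 lies at chr5:105115767-105139586, Irgm1 at chr11:48865245-48871420 and Igtp at chr11:58199556-58207592. Guanylate-binding protein genes are close copies of each other, so reads can be split between them or lost, and the share for each single Gbp gene is uncertain to that extent.

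The same droplet barcode occurs in more than 1 matrix, which bears on the results below. Naive brain and metastatic brain had 518 barcodes in common, naive brain and blood 339, metastatic brain and blood 578, and 84 were in all 3. Sharing was uneven. In the naive brain it was 62.2% of the cells of cluster 3, 65.7% of the neutrophil-like cluster 7 and 72.1% of the unnamed cluster 6. In the blood it was 82.7% of cluster 2 and 83.9% of cluster 6. The main results on naive clusters 3 and 7 and on blood clusters 2 and 6 are given with and without shared droplets. Cx3cr1 also went against the arm labels: in naive microglia-like cells it was 1.72 UMIs per 10000 with the control label and 10.0 with the depleted label. In the blood it was 0.286 and 3.64 in nonclassical monocyte-like cells and 0.170 and 2.15 in cluster 3. Arms are therefore named by their labels, and if the labels were exchanged every arm difference given here would change sign. Medians of raw UMIs per cell were 8621 and 10119.5 in the naive arms and 4571 and 5885 in the blood arms, control label first.

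A level is the number of corrected UMIs of a gene per 10000 UMIs, summed over the cells of a cluster. UMIs are counted at the 3' end and are not scaled to transcript length, so levels are compared between cells and never between genes. Clusters of the naive brain and the blood are the authors', clusters of the brain with metastases were made here, and all are called X-like from marker lists. The clustering of the brain with metastases used the 8 genes among its variable genes, and Gbp2 was 1 of the 10 leading genes of cluster 2, so levels by cluster are a description.

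In the brain with metastases the GTPase genes were concentrated in 1 population of macrophages. Cluster 2, with 519 cells (8.75% of all), carried 9 of 10 markers of monocyte-derived macrophages and was led by Cxcl9, a chemokine that attracts T cells, Ly6i and Ccl8. It held 61.2% of all Gbp2 UMIs of the matrix, 40.7% of Gbp5, 34.1% of Iigp1, 31.8% of Gbp3, 31.3% of Irgm1, 30.0% of Gbp4, 28.1% of Igtp and 22.6% of Gbp7. Cluster 2 had the highest level of 7 of the 8 genes among the 28 clusters. For Gbp7 the endothelial-like cluster 24 stood slightly above it.

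Gbp2, a guanylate-binding protein that coats pathogen vacuoles, reached 11.8 UMIs per 10000 in cluster 2. The next clusters were far below, with 2.63 in dendritic-like cells, 2.30 in fibroblast-like cells and 2.21 in the unnamed cluster 18, which mixed T cell genes with F13a1. Endothelial-like cluster 24 had 1.40 and CD8 T-like cluster 15 had 1.16. Gbp2 was low in the brain's own macrophages: border macrophage-like cells had 0.282 and microglia-like cells 0.231, next to 0.218 in the dividing, Ube2c-led unnamed cluster 10. The other monocyte-derived macrophage-like cluster, cluster 3, led by F13a1, Thbs1 and Chil3, had 1.09.

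Gbp2 varied widely between cells of cluster 2. The median cell had 8 UMIs, the quartiles were 2 and 24.5, and the highest cell had 145. Medians were 0 in border macrophage-like cells, in cluster 3, in microglia-like cells and in CD8 T-like cells. A Gbp2 UMI was seen in 85.7% of cluster 2 cells (exact interval 82.4 to 88.6), in 32.9% of cluster 3 (25.9 to 40.6), in 20.6% of microglia-like cells (16.8 to 24.8) and in 8.68% of cluster 10 (6.63 to 11.1). After thinning of every cell to 2000 UMIs the shares were 61.9% (57.5 to 66.1), 11.98%, 3.87% and 2.79%, in the same order. UMIs of genes of other cell types set a floor for such shares: one of the macrophage gene C1qa was found in 61.4% of CD8 T-like cells and one of the T cell gene Cd3e in 4.43% of cluster 2. Whether free RNA or droplets with more than 1 cell gave them was not tested.

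Gbp5, which promotes inflammasome assembly, had 2.42 in cluster 2, then 1.21 in endothelial-like cluster 24 and 1.02 in the unnamed cluster 26, against 0.509 in cluster 3 and 0.412 in microglia-like cells. Gbp3 had 1.89 in cluster 2, followed closely by 1.64 in the Ttr-led unnamed cluster 20 and 1.58 in endothelial-like cluster 24. Gbp3 was at 0.231 in microglia-like cells. Gbp4 had 1.52 in cluster 2, and then came lymphocytes: 1.15 in CD8 T-like, 1.04 in CD4 T-like and 0.819 in NK-like cells, while border macrophage-like cells had 0.092 and microglia-like cells 0.043. A Gbp4 UMI was present in 55.4% of CD8 T-like cells (50.2 to 60.4) and in 3.15% of microglia-like cells (1.69 to 5.32). Gbp7 was the most evenly spread. It had 2.31 in endothelial-like cluster 24, 2.19 in cluster 2, 1.76 in endothelial-like cluster 9, 1.73 in CD8 T-like and 1.49 in CD4 T-like cells, and 0.428 in microglia-like cells.

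Of the immunity-related GTPases, Irgm1 had 2.56 in cluster 2, 2.15 in cluster 20 and 1.52 in fibroblast-like cells. Cluster 3 had 0.874 of Irgm1, border macrophage-like cells 0.458 and microglia-like cells 0.441. Igtp (also called Irgm3) had 1.99 in cluster 2, 1.72 in CD4 T-like and 1.21 in CD8 T-like cells, against 0.195 in microglia-like cells. Iigp1 (Irga6), a GTPase that disrupts the vacuole of Toxoplasma, divided the macrophages most. It had 2.22 in cluster 2 and 0.017 in cluster 3, where 1.80% of cells had a UMI (0.372 to 5.16) against 49.9% in cluster 2 (45.5 to 54.3). Iigp1 was also high outside the immune cells, with 2.09 in endothelial-like cluster 9, 2.04 in cluster 20, 1.77 in fibroblast-like cells, 1.49 and 1.42 in endothelial-like clusters 11 and 24. Intervals for the shares of Iigp1 cells overlapped between cluster 2 and these endothelial-like clusters, for example 60.4% (50.6 to 69.5) in cluster 9.

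**Figure D1:**
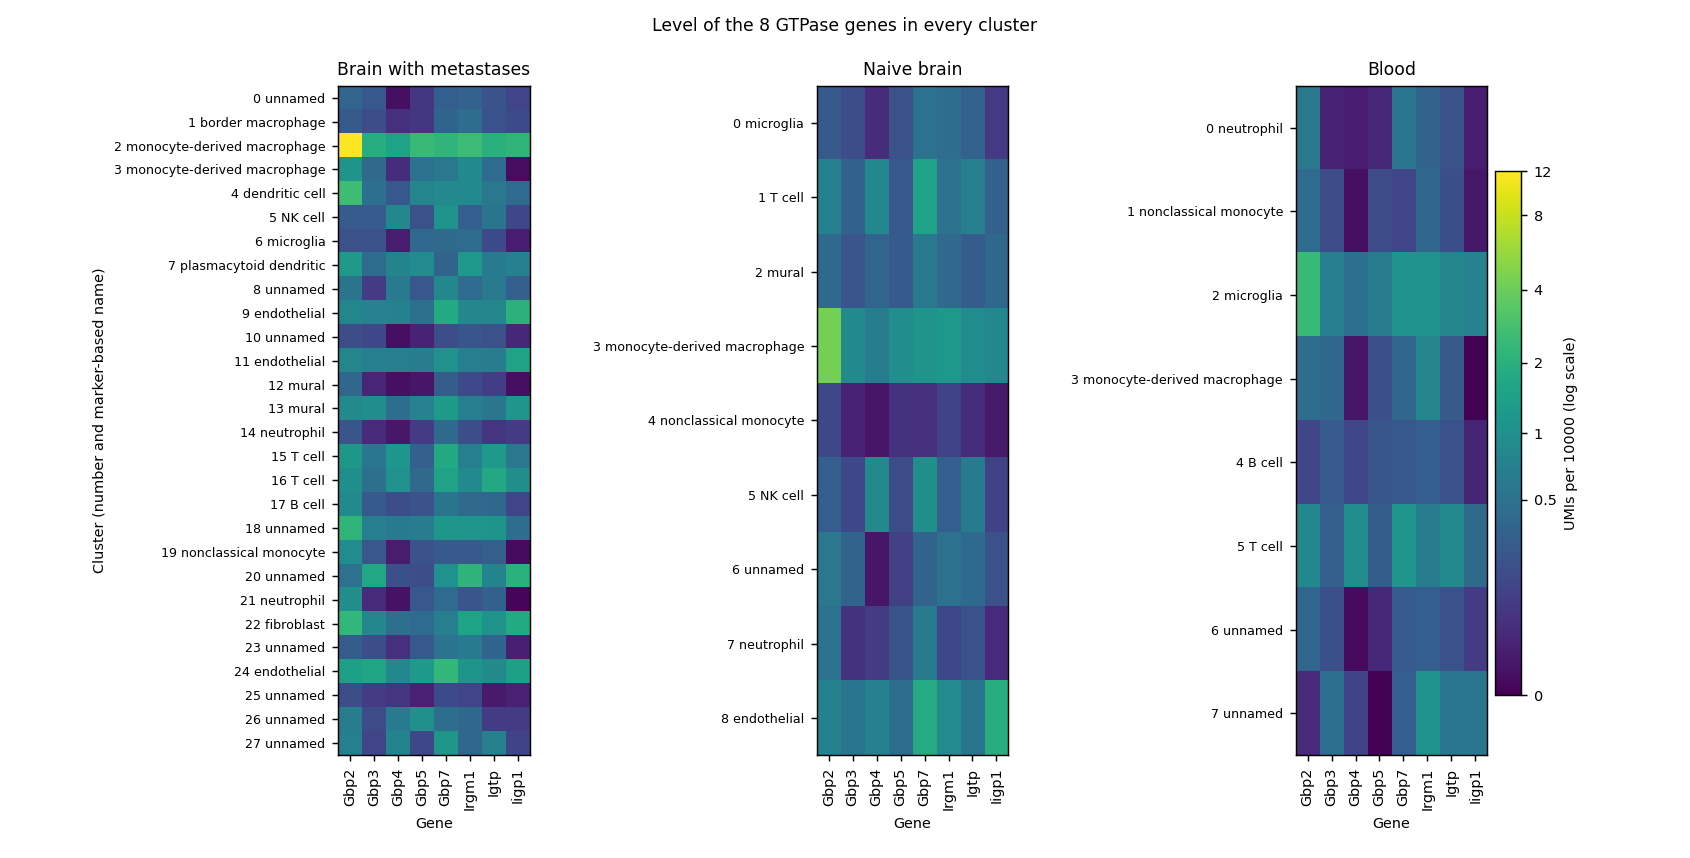
Level of each of the 8 GTPase genes (columns, UMIs per 10000, colour on a log scale) in every cluster (rows) of the brain with metastases, the naive brain and the blood. Cluster 2 of the brain with metastases has the highest Gbp2 level (11.8), and endothelial-like, T-like and fibroblast-like clusters carry intermediate levels of Gbp7, Igtp and Iigp1.

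In the naive brain macrophage-like cells again had the highest Gbp2 level, but not the highest level of every gene. Cluster 3, monocyte-derived macrophage-like with 283 cells, had Gbp2 at 4.30, Irgm1 at 1.20, Gbp7 at 1.101, Gbp5 at 0.957, Igtp at 0.919, Gbp3 at 0.895, Iigp1 at 0.844 and Gbp4 at 0.669. Without shared droplets 107 cells were left, and these levels were 2.88 for Gbp2, 0.881 for Irgm1, 0.743 for Gbp7 and 0.560 for Gbp4. Endothelial-like cells (cluster 8, 44 cells) had Iigp1 at 1.90 and Gbp7 at 1.81, both above the macrophage-like cells. T-like cells had Gbp7 at 1.48, and Gbp4 was higher in NK-like (0.848), T-like (0.835) and endothelial-like cells (0.727) than in cluster 3. Microglia-like cells, the largest group with 820 cells, had Gbp7 at 0.50 and the other 7 genes below that.

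In the blood, T-like cells (cluster 5) had Gbp7 at 1.15, Gbp4 at 0.957 and Igtp at 0.849. Without shared droplets these were 0.923 for Gbp7, 0.757 for Gbp4 and 0.665 for Igtp. Cluster 3 of the blood, with 8 of 10 markers of the monocyte-derived macrophage list (among them Ccr2 and Ly6c2, which classical monocytes of blood also express), had Irgm1 at 0.787 and no Iigp1 UMI in 355 cells (interval up to 1.03%). Neutrophil-like cells had a UMI of Gbp7 in 14.7% (12.5 to 17.1). Cluster 2 of the blood carried 10 of 10 markers of microglia, which reside in the brain, though Cx3cr1 among them is also found on part of the monocytes. This cluster shared 82.7% of its droplets with the brain matrices. It had Gbp2 at 2.45, and its 81 unshared cells had 3.49.

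The 8 genes were found together in single cells. In cluster 2 of the brain with metastases 82.1% of cells (78.5 to 85.3) had UMIs of at least 4 of the 8, and 161 of 519 cells had all 8. The shares were 62.0% (55.4 to 68.3) in endothelial-like cluster 24, 58.6% in cluster 18, 50.3% in endothelial-like cluster 11, 46.6% in fibroblast-like and 40.5% in CD8 T-like cells. They were 22.2% (16.1 to 29.2) in the other macrophage-like cluster, 13.9% in border macrophage-like and 9.69% (7.01 to 12.95) in microglia-like cells. In the naive brain 42.4% of macrophage-like cells (36.6 to 48.4) and 52.3% of endothelial-like cells (36.7 to 67.5) had at least 4, against 28.04% of the 107 unshared macrophage-like cells (19.8 to 37.5), 9.63% of microglia-like cells and 0 of 166 nonclassical monocyte-like cells (interval up to 2.20%).

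**Figure D2:**
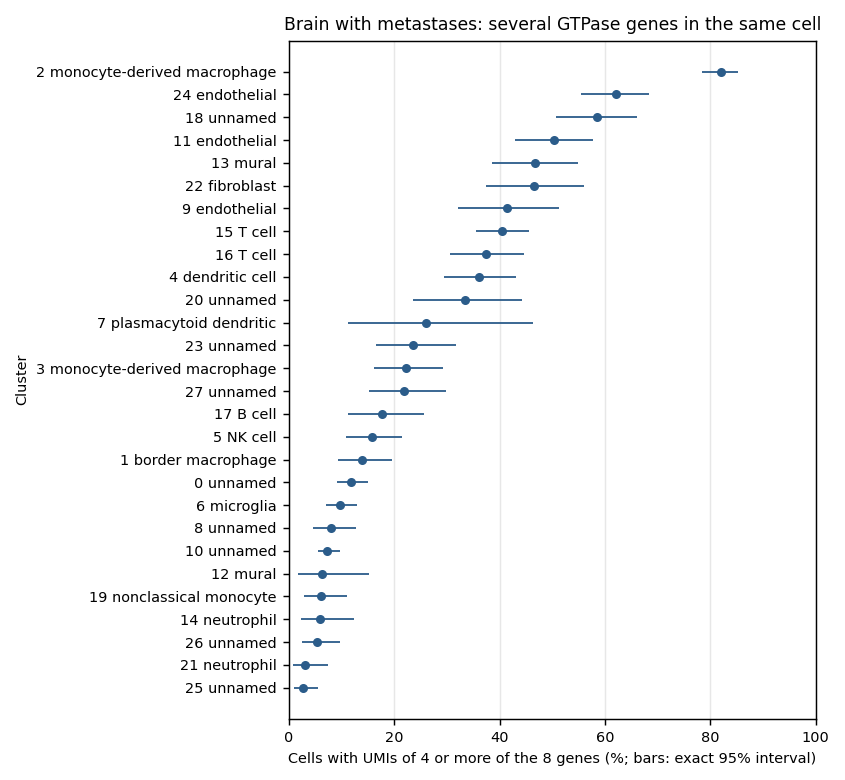
Percentage of cells with UMIs of at least 4 of the 8 GTPase genes (x axis) in each cluster of the brain with metastases (y axis), with exact 95% intervals that cover counting error. Cluster 2 is highest at 82.1%, endothelial-like cluster 24 follows at 62.0% and microglia-like cells have 9.69%.

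Within cluster 2 the genes went with Gbp2. The 445 cells with Gbp2 and the 74 without had medians of 14612 and 14651 corrected UMIs. Corrected UMIs are already adjusted for depth, so these medians do not show that raw depth was similar. Raw totals per cell were not at hand for the brain with metastases, and the part of depth was not tested. A Gbp3 UMI was found in 83.8% of the cells with Gbp2 (80.1 to 87.1) and 29.7% of those without. A Gbp5 UMI was found in 77.3% and 21.6%. Gbp4 was found in 69.4% and 18.9%, Igtp in 84.7% and 43.2%, and Iigp1 in 54.6% and 21.6%. The gap was smallest in ratio for Irgm1, with 89.0% and 60.8%. Cxcl9 was found in 68.1% and 20.3%, while Ifng, the gene of interferon-gamma itself, was found in 2.02% and 2.70%.

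Naive cluster 3 divided in the same way and more evenly, with 133 cells with Gbp2 and 150 without. Gbp3 was found in 78.2% and 16.7%, Gbp5 in 69.2% and 9.33%, and Cxcl9 in 49.6% and 8.0%. Ifng was found in 11.3% and 9.33%. Among unshared droplets 34 cells had Gbp2 and 73 did not, with Gbp3 in 73.5% (55.6 to 87.1) and 12.3% (5.80 to 22.1) and Iigp1 in 44.1% (27.2 to 62.1) and 2.74% (0.334 to 9.55). Endothelial-like cluster 24 showed a smaller gap: Gbp3 was found in 70.0% of the cells with Gbp2 and 47.7% of those without, and Iigp1 in 53.3% and 45.9%, with overlapping intervals for Iigp1 (44.0 to 62.5 and 36.3 to 55.7). In CD8 T-like cells Iigp1 was found in 35.4% of cells with Gbp2 and 12.5% of cells without, and Ifng in 49.1% and 47.6%.

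**Figure D3:**
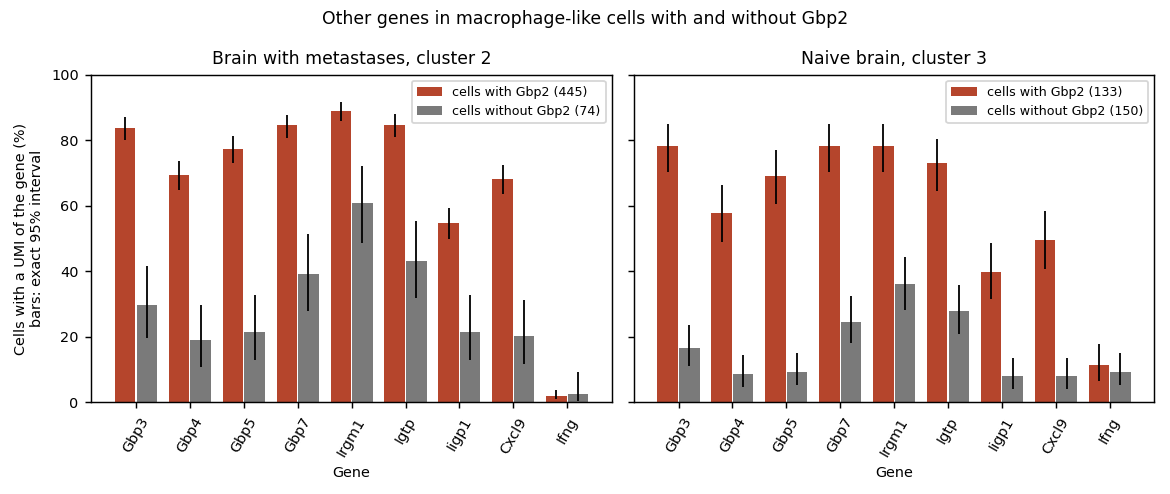
Percentage of cells with a UMI of each gene (y axis, bars with exact 95% intervals) among macrophage-like cells with and without a Gbp2 UMI, in cluster 2 of the brain with metastases and cluster 3 of the naive brain. All 7 other GTPase genes and Cxcl9 were found more often in cells with Gbp2, for example Gbp5 in 77.3% against 21.6% in cluster 2, while Ifng was found in 2.02% and 2.70%.

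Other genes of the pathway followed in part. Ifng was highest in lymphocytes of the brain with metastases, with 2.33 UMIs per 10000 in CD8 T-like cells, 1.096 in NK-like cells, 0.932 in cluster 18, 0.40 in CD4 T-like cells and 0.058 in cluster 2. In the naive brain Ifng was 1.37 in T-like and 1.08 in NK-like cells. The receptor genes were not highest where the GTPase genes were: cluster 2 had Ifngr1 at 1.88 and NK-like cells at 9.85, and Ifngr2 was 2.03 in cluster 2 and 2.18 in microglia-like cells. Irf1, a transcription factor that interferon-gamma induces, was 3.04 in cluster 2 and 3.86 in plasmacytoid dendritic-like cells.

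Of the 19 other targets of interferon-gamma 18 reached 0.5 per 10000 in a cluster, and 9 of them were highest in cluster 2. It had Cxcl10, a T cell chemokine, at 37.4, Cxcl9 at 23.4, Cd274, the gene of PD-L1, at 3.00, and Nos2, the inducible nitric oxide synthase, at 1.02. Others were highest elsewhere, such as Ly6a, with 42.0 in endothelial-like cluster 24 and 17.4 in cluster 2, and Irf8, with 29.4 in plasmacytoid dendritic-like cells and 3.74 in cluster 2. Of the 13 genes better known for type I interferon 8 were highest in cluster 2, with Isg15 at 20.4, Rsad2 at 8.40 and Mx1 at 1.77. The share of all genes that were highest in cluster 2 is not given here, so counts of listed genes highest there are descriptions. Among other GTPases of these families, Ifi47 was highest in cluster 2 (4.77) and Gbp9 was 0.719 there and 0.750 in endothelial-like cluster 24. Gbp6 (0.269), Gbp8 (0.404) and Irgm2 (0.411) stayed below 0.5 in cluster 2. Whether interferon-gamma or type I interferon raised the 8 genes was not tested.

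Across all 45 clusters of the 3 matrices, the genes with log2 levels most like the mean of the 8 were Xaf1 (Pearson r = 0.85), Ifi47 (0.83), Ly6a (0.83), Gbp9 (0.81), Ifi35 (0.79), Ifit3 (0.77), Ifit1 (0.76), Isg15 (0.74), Irf7 (0.74) and Nmi (0.74). For single genes the closest were Irf7 for Gbp2 (0.78), Xaf1 for Gbp3 (0.85), Gbp9 for Gbp4 (0.90) and for Gbp7 (0.86), Tapbp for Gbp5 (0.79), Ube2l6 for Irgm1 (0.80), Ifi47 for Igtp (0.83) and Ly6a for Iigp1 (0.82). Among the 8 genes the 28 pairs had r from 0.55 to 0.90 with a median of 0.66. Clusters of a matrix share a library, depth and droplets, so these values are descriptions.

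Setting metastatic brain beside naive brain asks how the genes differ in cells of the same name. It crosses matrices that were normalized separately. A gene counted as measured at 0.5 per 10000 or more on at least 1 side, which favours genes that are high on 1 side, and a difference was counted past 2 fold on log2(level + 0.1). Of 64 pairs of gene and cell class 36 were measured, of which 29 were above 0 and 7 below. Past 2 fold were 3, all higher with metastases: Gbp2 in macrophage-like cells, Gbp3 in mural-like cells and Gbp2 in nonclassical monocyte-like cells.

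In monocyte-derived macrophage-like cells (283 naive, and 686 with metastases in clusters 2 and 3) all 8 genes were measured and higher with metastases, by a median of 0.78 on the log2 scale against 0.08 for all measured genes. Gbp2 was 4.30 in naive brain and 9.23 with metastases (1.08 on the log2 scale), and 0.534% of measured genes were past 2 fold higher. These differences depended on the clusters made here. At a clustering resolution of 0.5 Gbp2 differed by 0.82. At 2.0 a Cxcl9-led cluster of 247 cells had no name and so lay outside the class, and Gbp2 differed by 0.11, Gbp4 by -0.25 and Iigp1 by -0.52. Gbp5 was 0.957 and 1.97 (0.97), Iigp1 0.844 and 1.70 (0.93) and Irgm1 1.20 and 2.16 (0.80). Gbp7 had the smallest difference, 1.101 and 1.81 (0.67). Shares of cells differed likewise, with Gbp2 in 47.0% and 72.9%. These shares were not thinned to equal UMIs. Median corrected UMIs per cell were 10386 in the naive cells and 14614 and 13852 in metastatic clusters 2 and 3, and more UMIs per cell raise such shares. The 2 metastatic clusters lay on either side of the naive cells: cluster 3 alone was below them, with Gbp2 at 1.09 against 4.30 and Iigp1 at 0.017 against 0.844, and the summed level of the 8 genes was 26.6 in cluster 2, 4.02 in cluster 3 and 10.9 in the naive cells. Median raw UMIs of naive cluster 3 were 24399, and the part of depth was not tested.

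Shared droplets lay across this comparison. Of the 283 naive macrophage-like cells 137 were also in the brain with metastases, and 53 of them in its cluster 2. Those 53 droplets had Gbp2 at 11.4, the 123 other shared ones at 2.39 and the 107 unshared ones at 2.88. Without shared droplets all 8 genes were past 2 fold higher with metastases, while 6.04% of all measured genes were, and the median was 1.24 against 0.12. Gbp2 was then 2.88 and 9.77 (1.73), Gbp5 differed by 1.47, Igtp by 1.27, Irgm1 by 1.26, Gbp7 by 1.23, Gbp3 by 1.14, Iigp1 by 1.13 and Gbp4 by 1.00.

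**Figure D4:**
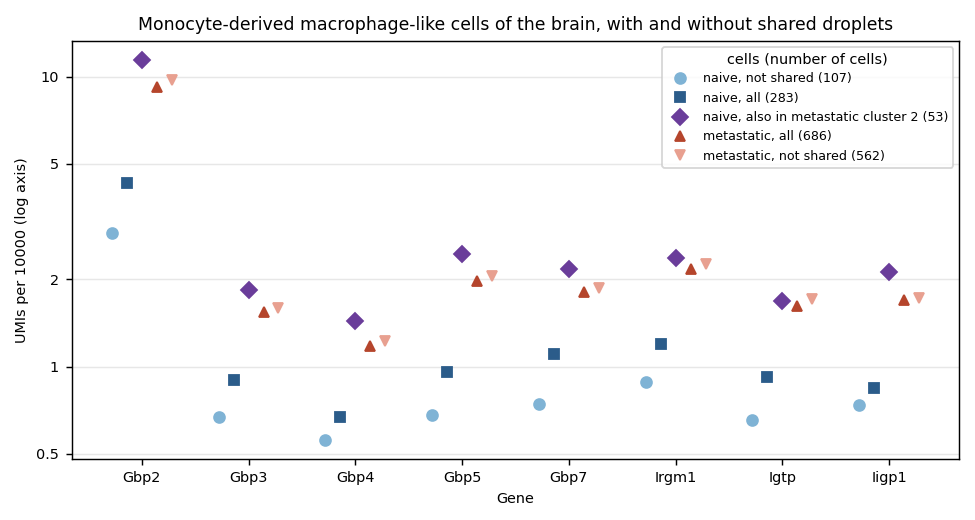
Level of the 8 GTPase genes (x axis) in monocyte-derived macrophage-like cells of the naive brain and the brain with metastases (y axis, UMIs per 10000, log axis), with all droplets and without those shared between matrices. For every gene the unshared naive cells are lowest (Gbp2 at 2.88). The 53 naive droplets that also lie in cluster 2 of the brain with metastases have Gbp2 at 11.4. They are above metastatic clusters 2 and 3 joined, except for Igtp, where the unshared metastatic cells are higher. Cluster 2 alone, which is not drawn, has Gbp2 at 11.8.

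Several genes were also measured in T-like and endothelial-like cells. In T-like cells 7 genes were measured and all were higher with metastases, by a median of 0.53 against 0.06, led by Igtp at 0.675 and 1.38 (0.93) and Iigp1 at 0.338 and 0.705 (0.88). None of the 7 was past 2 fold, whereas 1.69% of measured genes were past 2 fold higher. Without shared droplets Igtp was past it (1.11), as were 1.95% of genes. The T-like class was led by CD8 genes in the naive brain and held a CD8 and a CD4 cluster with metastases. Endothelial-like cells (44 naive, 525 with metastases) had 5 of 8 above 0 and none past 2 fold, where 6.26% of genes were higher. Gbp3 was 0.539 and 1.08 and Gbp5 0.445 and 0.852, while Gbp7 was 1.81 and 1.73 and Iigp1 1.90 and 1.59.

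Mural-like cells had 6 measured genes, all above 0, by a median of 0.66 against 0.15. Gbp3 was 0.251 and 0.680 (1.15, and 1.43 without shared droplets, where 13.1% of genes were higher), in a class where 11.9% of measured genes were past 2 fold higher. It joined cluster 12 (64 cells, Gbp3 at 0.067, summed level of the 8 genes 1.18) and cluster 13 (152 cells, 0.955 and 6.66), while the summed level was 3.05 in the naive cells, so the higher values lay in cluster 13. The class also carried endothelial markers, 8 of 9 in naive cluster 2 and 9 of 9 in cluster 13 of the brain with metastases, where Cldn5 was 33.5, and their part in the result was not tested. Nonclassical monocyte-like cells had 1 measured gene, Gbp2, at 0.185 and 0.931 (1.85), where 0.742% of genes were past 2 fold higher. Without shared droplets the difference was 1.78, with 0.641% of genes. In clusters made without the listed genes, an alternative added after the data were seen, this class held 169 cells with metastases, had Gbp2 at 3.37 per 10000 and differed by 3.61. In microglia-like cells only Gbp7 was measured, at 0.50 and 0.428, with 2.89% of genes past 2 fold lower. Neutrophil-like cells had Gbp2 at 0.514 and 0.623, where 3.38% of genes were past 2 fold higher, and Gbp2 differed by 1.43 without shared droplets, where 9.08% were. NK-like cells had Gbp4, Gbp7 and Igtp measured, with a median of -0.04 and none past 2 fold, where 0.949% of genes were higher.

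Related lists differed in the same direction in macrophage-like cells. Of the 19 other targets of interferon-gamma 16 were measured and 14 were above 0, by a median of 0.85, with Cxcl9 (1.26), Upp1 (1.25) and Cxcl10 (1.14) past 2 fold. Of the 13 type I interferon genes 12 were measured and all were above 0, by a median of 0.77, with Ifit2 (1.00) past 2 fold. The ligand, receptor and signal genes had a median of 0.09. In T-like cells 8 of 8 measured type I genes were above 0, with Isg15 (1.16), Ifit3 (1.09) and Rsad2 (1.02) past 2 fold.

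The arm comparison in the naive brain asks how the genes differ between samples with the depleted and the control label. None of 23 measured pairs of gene and class was past 2 fold, with 7 above 0 and 16 below. In macrophage-like cells (111 control, 172 depleted label) Gbp2 was 4.52 and 4.16, Irgm1 1.39 and 1.07, and Iigp1 0.588 and 1.01, control label first, where 1.35% of genes were past 2 fold lower and 0.451% higher. Median hashtag counts of these cells were 63 with the control and 1132 with the depleted label, against 248.5 and 784.5 in the other naive clusters. The control label therefore rests on fewer hashtag counts here. Without shared droplets 40 and 67 cells were left, all 8 genes were lower with the depleted label, and the median was -0.70 against -0.16 for all genes. Gbp7 was then 1.23 and 0.445 (-1.29) and Gbp2 4.37 and 1.97 (-1.11), while 7.12% of genes were past 2 fold lower, and Iigp1 turned from 0.69 to -0.43 and Gbp4 from 0.17 to -0.48.

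In T-like cells (59 and 440) Gbp2 was 1.28 and 0.65 (-0.88) and Iigp1 0.550 and 0.309 (-0.67), where 0.675% of genes were past 2 fold lower. Gbp7 was near equal, at 1.58 and 1.47, and 6 of 7 measured genes were below 0, by a median of -0.33. Without shared droplets the direction did not hold, with 3 of 5 measured genes above 0 and a median of 0.11: Gbp2 differed by -0.44, Igtp by -0.12, Gbp4 by 0.11, Gbp7 by 0.35 and Irgm1 by 0.68. In mural-like cells Iigp1 was 0.566 and 0.286 (-0.79), with 1.64% of genes past 2 fold lower, and -1.01 without shared droplets, with 1.59% of genes. NK-like cells (36 and 110) had Igtp at 0.427 and 0.674 (0.56), with 1.45% of genes past 2 fold higher. Microglia-like cells (134 and 686), the cells the toxin was aimed at, had Gbp7 at 0.633 and 0.475 (-0.35), with 0.977% of genes past 2 fold lower, and the other 7 genes below 0.5 in both samples. Neutrophil-like cells (49 and 56) had Gbp2 at 0.648 and 0.399 (-0.58), with 1.62% of genes past 2 fold lower. The share of cells with a Gbp2 UMI went the other way, at 12.2% (4.63 to 24.8) and 19.6% (10.2 to 32.4), with overlapping intervals. Without shared droplets 18 neutrophil-like cells were left with each label, below the 30 needed for a ratio. The summed level of the GTPase genes was then 0.623 and 1.09, and none of them reached 0.5 in either sample.

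Among the lists in the naive brain, all 12 measured type I interferon genes were lower in macrophage-like cells with the depleted label. Their median was -0.71 against -0.05 for all measured genes, and none was past 2 fold. In NK-like cells 3 of 4 were past 2 fold higher, Isg15 (1.19), Ifit1 (2.57) and Ifit3 (1.18), beside Cxcl10 (2.23). T-like cells had Cxcl10 lower (-2.0) and Rsad2 lower (-1.02). These list values include shared droplets, which were 62.2% of the macrophage-like cells.

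In the blood 20 pairs were measured, 6 above 0 and 14 below, and 1 was past 2 fold, Gbp2 in the unnamed cluster 6 at 0.604 and 0.169 (-1.39), where 0.514% of genes were that far down. Cluster 6 was led by Rhox5, Wfdc2 and Serpinh1, 83.9% of its droplets were shared, and its median counts of the hashtags for the control and depleted labels were 19 and 20, against 442.5 and 516.5 in the other cells. The arm of these cells therefore rests on few hashtag counts. In its unshared droplets, 21 and 8 cells, Gbp2 was 0.481 and 0.178, from 7 UMIs and 1 UMI.

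Gbp7 was lower in neutrophil-like cells and cluster 3 of the blood sample labelled depleted. In neutrophil-like cells (537 and 429) it was 0.695 and 0.379 (-0.73), with a UMI in 19.4% (16.1 to 23.0) and 8.86% (6.35 to 11.96) of cells, and 0.561% of genes were past 2 fold lower. Thinned to 2000 UMIs the shares were 11.2% (8.64 to 14.2) and 5.59% (3.62 to 8.21), which still did not overlap. In blood cluster 3 (160 and 195) Gbp7 was 0.551 and 0.272 (-0.81) and Irgm1 0.965 and 0.640 (-0.53), where 0.691% of genes were past 2 fold lower. Without shared droplets Gbp7 differed by -0.90 in the former and -0.95 in the latter. Gbp2 had no steady direction: it was 0.559 and 0.602 in neutrophil-like cells (0.09), and 0.546 and 0.513 without shared droplets (-0.08). Gbp7 shares in cluster 3 were 26.9% and 11.3%, and after thinning 10.0% (5.83 to 15.7) and 2.56% (0.838 to 5.88), with intervals that overlapped narrowly. T-like cells (103 and 103) had Gbp2 at 0.829 and 0.851, Gbp4 at 0.921 and 0.991 and Gbp7 at 1.25 and 1.06, and the furthest apart was Iigp1 at 0.516 and 0.348 (-0.46), where 0.216% of genes were past 2 fold lower. The microglia-like cluster 2 of the blood (234 and 234) had Gbp7 the other way, at 0.975 and 1.13 (0.19), with Gbp2 at 2.66 and 2.26 and Gbp5 at 0.797 and 0.545 (-0.48), with 0.669% of genes past 2 fold lower. In its unshared droplets (42 and 39) Gbp5 differed by -1.06, with 4.73% of genes past 2 fold lower.

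Type I interferon genes were lower in several classes of the blood sample labelled depleted. All 7 measured were below 0 in neutrophil-like cells, by a median of -1.01, with Ifit3 (-1.62), Oasl1 (-1.19), Oasl2 (-1.02) and Ifit1 (-1.01) past 2 fold. All 6 were below 0 in cluster 3, by a median of -1.06, with Isg15 (-1.55), Oasl2 (-1.49), Irf7 (-1.11) and Ifit3 (-1.02) past 2 fold. Nonclassical monocyte-like cells had 3 of 3 below 0 (median -1.20), B-like cells 2 of 2 (-1.37) and cluster 6 had 6 of 7 (-0.92), while the medians were -0.09 in T-like cells and 0.02 in cluster 2. Other targets of interferon-gamma had medians of -0.02 in neutrophil-like cells and -0.27 in cluster 3. With 1 hashed sample a side, arm and animal cannot be told apart.

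**Figure D5:**
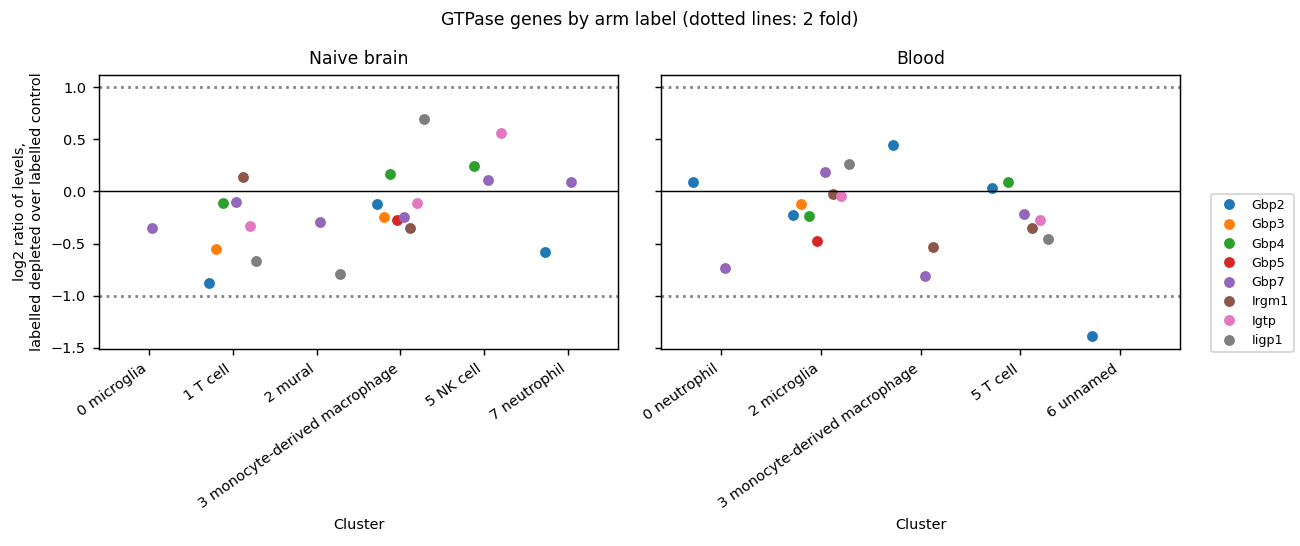
Log2 ratio of level, labelled depleted over labelled control (y axis), of each measured GTPase gene by class in the naive brain and the blood (x axis), 1 hashed sample a side, with dotted lines at 2 fold. In the naive brain no point passes 2 fold, and in the blood Gbp2 of the unnamed cluster 6 (-1.39) does, while Gbp7 lies at -0.73 in neutrophil-like cells and -0.81 in cluster 3.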

How the data were processed

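Per the labels, a single pool went through the 10x 3' v3 RNA assay, and the submitters' processing notes name mm10, Cell Ranger 3.1 and Seurat 3.1.1. The authors deposited values on a natural log scale, ln(1 + UMIs), of counts corrected for depth in each matrix separately. Undoing the log gave whole numbers (within 1e-06) for 100% of values. The plan had assumed raw UMI counts, and corrected counts were summed in their place. The deposited annotation gave raw counts, arms, clusters and gates. Its other 65 columns were not used.

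The brain with metastases was clustered with scanpy 1.11.5 (2000 variable genes, 30 components, 20 neighbours, Leiden resolution 1.0). A name needed 3 markers at 2 fold or more, no fewer markers than the list's missing ones, and more markers among the 10 leading genes than any unrelated list, or all of its markers where no list had one there. That rule was revised after a first result was seen. All deposited cells were kept and no doublet caller was run. Ratios used a pseudocount of 0.1 per 10000 and needed 30 cells on each side. Shares carry exact Clopper-Pearson 95% intervals. The log2 ratio was tested on counts simulated from naive T-like and blood neutrophil-like cells, with known changes set only in genes at higher levels. Changes at lower levels, where many values of the 8 genes lie, were not simulated. The 8 genes and the gene lists were chosen with earlier results of these data known. The text names the 8 genes, listed genes past 2 fold or with a stated role, and the 10 genes most like the 8. Alternatives were shared droplets left out, surface gates, other resolutions, pseudocount, filter and means over cells, plus clustering without the listed genes, which was added after the data were seen. Protein and hashtag libraries were used only through the authors' annotation.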

Additional observations from a re-analysis of the deposited data

How the results depend on the processing

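Values without replicates were counted as moved past 1.5 times, a limit chosen here. Of 459 single values 438 stayed within it, 21 moved and no value past 2 fold changed sign. The 438 include values without the filter on low levels, 23 and 20 for the naive and blood arms and 36 for metastatic beside naive brain. Those could not move, because the filter does not enter the ratio of a measured pair. Surface gates were not among the 459. The summed level of the 8 genes in the leading cluster was 26.56, and 18.11 at resolution 0.5 (873 cells), 40.69 at resolution 2.0 (59 cells) and 18.54 when clusters were made without the listed genes (286 cells). The share of its cells with Gbp2 was 85.74%, and 61.85% after thinning. Pairs past 2 fold between the naive arms numbered 0, and 3 without shared droplets and 7 with surface gates. In the blood they numbered 1, and 2 with surface gates, 0 with a pseudocount of 1 and 6 without the filter on low levels. For the brain with metastases beside the naive brain they numbered 3, and 12 without shared droplets, 0 with a pseudocount of 1, 5 without the filter and 8 when clusters were made without the listed genes. In that last setting 6 of the 8 lay in nonclassical monocyte-like cells, where the Gbp2 level was 3.37 per 10000. The 7 naive pairs with surface gates were Gbp3, Gbp5, Gbp7 and Irgm1 lower in the Ly6C+Ly6G+ gate, Gbp2 and Gbp5 lower in the B220+ gate and Irgm1 higher in the CD3+ gate. Shares of all measured genes past 2 fold are given only for the main setting and without shared droplets. Counts in the other settings are therefore descriptions. At resolutions 0.5 and 2.0 Gbp2 in macrophage-like cells was no longer past 2 fold (0.82 and 0.11). At 2.0 Gbp2 in microglia-like cells was past it (1.32), at 0.282 in 820 naive cells and 0.853 in 599 cells with metastases. At resolution 1.0 that gene was at 0.282 and 0.231 in microglia-like cells, the other direction. Both lay below 0.5, so it was not a measured pair there. With control-labelled naive cells alone Gbp3 in endothelial-like (1.07) and Iigp1 in macrophage-like cells (1.38) passed. The causes were not tested. No paired analysis was possible because each arm and tissue is 1 hashed sample and no test was made, and no sample could be left out. Depth limits genes below 0.5 per 10000.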
